A study of Mus musculus with 3 samples.

Results

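Hnf4a and Hnf4g encode the paired HNF4 nuclear receptors, and both genes carried the mutations of the double knockout (DKO) profiled here. The report covers open chromatin at these 2 loci, defined as every ATAC-seq peak that overlapped the gene body or the 50 kb on either side. Peaks of the 3 libraries that overlapped by at least 1 bp were merged into regions, which gave 19 regions at the 2 loci among 33564 in the whole series. Of these, 9 lay at Hnf4a and 10 at Hnf4g. ATAC-seq uses the Tn5 transposase to insert sequencing adapters into accessible DNA, so that a peak marks a stretch of open chromatin.

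The cells were epithelial cells of the small intestine (midgut in the labels) from mouse embryos at stage E16.5, collected on magnetic beads coated with antibody to EpCAM, a surface protein of epithelial cells, with 20000 cells per library. The control was 1 library of the genotype Hnf4gCrispr/+, which carries the mutant Hnf4g allele on one chromosome and has no Shh-Cre or floxed Hnf4a allele in its label. The DKO group was 2 libraries, replicates 1 and 2 (called DKO1 and DKO2), of the genotype Shh-Cre; Hnf4af/f; Hnf4gCrispr/Crispr. In the DKO both copies of Hnf4g are mutant in all cells, whereas Hnf4a is removed only where the Shh-Cre driver, active in the gut endoderm, has acted. The Crispr allele of Hnf4g was thus present in all 3 libraries, in one copy or in both. The labels do not say which bases of Hnf4g the Crispr allele changes, which exons of Hnf4a are flanked by loxP sites, or whether the DKO libraries came from separate embryos. Control and DKO also differed in Cre and in the Hnf4a alleles, so the effects of these cannot be told apart.

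HNF4 proteins bind DNA as dimers and activate genes of fat handling, digestion and transport in the liver and gut. HNF4A is made in liver, kidney, pancreas and intestine, while HNF4G is abundant mainly in the gut and kidney. The Hnf4a gene has a pair of promoters: P1, used in adult liver, and P2, which lies upstream of P1 and is used in the pancreas, with both used in the intestine. HNF1 factors and HNF4A itself are known regulators of these promoters.

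The bases just upstream of the Hnf4a start sites are shown because the lists differed between them: a peak covered the P2 start in all 3 libraries, and none covered the P1 start in any. The sequences are those of RefSeq on build GRCm38.p6, plus strand, each the 250 bases that end 1 base before the start. Capitals mark exact matches to the searched motifs, which at P2 is the GATA motif AGATAA and at P1 a pair of HNF1 half-sites (GTTAAT on the minus strand).

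Hnf4a P2 (chr2:163506607-163506856): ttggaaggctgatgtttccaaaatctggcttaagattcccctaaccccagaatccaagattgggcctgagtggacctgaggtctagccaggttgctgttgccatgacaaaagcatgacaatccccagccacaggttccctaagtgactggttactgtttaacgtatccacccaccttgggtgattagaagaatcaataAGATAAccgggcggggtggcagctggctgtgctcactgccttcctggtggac

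Hnf4a P1 (chr2:163546905-163547154): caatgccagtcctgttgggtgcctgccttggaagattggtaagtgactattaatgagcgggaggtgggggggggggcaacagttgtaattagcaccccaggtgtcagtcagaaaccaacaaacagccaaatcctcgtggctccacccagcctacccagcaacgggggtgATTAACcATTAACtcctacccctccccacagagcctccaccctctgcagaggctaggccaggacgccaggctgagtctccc

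The motif AGATAA, read by the GATA zinc-finger factors, began 52 bases upstream of the P2 start, and 9.99% of 32817 promoter stretches of the same length in the RefSeq table held it on either strand. The HNF1 half-site GTTAAT, chosen after the sequences were seen, matched P1 at 81 and 74 bases upstream of the start, and 6.44% of promoter stretches held it. The other motifs searched on both strands were CAAAGTCCA for HNF4 (in 0.384% of promoters), the full HNF1 motif, a palindrome of the half-site with 1 free base between its arms (0.00914%), TTTATG for CDX (10.8%) and TGTTTAC for FOXA (3.16%). None of these was present as an exact match in either Hnf4a stretch. Near matches were not searched. The P2 stretch holds gttactgtttaac, which differs from the full HNF1 motif at as many letters as attaaccattaac at P1. The half-site matches therefore do not set P1 apart from P2 for HNF1. The HNF1 half-site overlaps the full HNF1 motif, so the 2 are not separate searches. The RefSeq promoter table used here has no entry for Hnf4g.

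The peak lists are on build mm9, per the submitters' processing notes, and the gene table on GRCm38, so each gene was placed by the offset that puts most peaks on start sites nearby. Around Hnf4a, 85 peaks fell on start sites at an offset of -174376 bp, against 28 at the next best offset. The offset lay between -174410 and -174319 bp when 2.5 to 20 Mb were searched, a range of 0.1 kb. The placed Hnf4a body runs from chr2:163332435 to 163398531. Around Hnf4g the same search had only 2 start sites and no clear answer. The ends of other protein-coding gene bodies gave none over 10 Mb either (7 genes, with 6 peaks at the best offset and 6 at the next), so the 24 gene bodies within 20 Mb were used, and 32 peaks fell on them at -9 bp against 11 at the next best offset. The placed Hnf4g body runs from chr3:3508021 to 3659791, and its lower end is taken as the start of this plus-strand gene. Exons were not part of the table, so regions inside a gene are not assigned to exons or introns.

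Each list gives fixed windows of 601 bp with a score. The control list held 16977 peaks, DKO1 held 18268 and DKO2 held 26648. The meaning of the score is not stated and sequencing depth is unknown, so scores were compared as percentile ranks inside each list, where 100 is the strongest peak. A site without a peak is one where none was called, which does not show closed chromatin. Of the epithelial marker genes with a placed start site, 2 of 7 had a peak within 1 kb of it in the control, 5 in DKO1 and 4 in DKO2. Epcam and Cdx2 had one in all 3, Cldn4 and Cldn7 in both DKO libraries only, Krt8 in DKO1 alone, and Krt18 and Krt20 in none. Of all placed start sites, 29.6% had a peak within 1 kb in the control, 33.8% in DKO1 and 35.5% in DKO2. No placed endothelial (2) or immune (3) marker had one in any library, while the smooth muscle gene Acta2, 1 of 5 placed mesenchymal markers, had one in DKO1, and the neuronal gene Elavl4, 1 of 2 placed neural and glial markers, had one in both DKO libraries. The Y chromosome also separated the libraries, with 2 peaks in the control list, 24 in that of DKO1 and 40 in that of DKO2. The part of other cells and of the sex of the embryos in the results at Hnf4a and Hnf4g was not tested. These markers were named after their values were seen. Because these are bulk libraries, a site open in fewer cells and a site less open in every cell cannot be told apart.

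With 1 control library the spread within the control cannot be measured, and permuting the labels exactly could reach no p under 0.333, so no test was made. The difference between the DKO replicates is set beside the control differences as the only measure of replicate spread.

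At Hnf4g the control list held more of the locus than either knockout list, and the start site itself was called in the control alone. The control had 9 peaks in the 251.8 kb window, DKO1 had 7 and DKO2 had 8. Of the 10 regions, 7 were called in all 3 libraries, 2 in the control only, 1 in DKO2 only and none in both DKO libraries without the control. Over the whole series 30.9% of regions were called in all 3 libraries, 13.0% were control-only (a control peak and no DKO peak) and 16.0% were DKO-only (called in DKO1 and DKO2 but not in the control). The 2 control-only regions of 10 at Hnf4g are thus not far from the background share.

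The Hnf4g start site lay inside a control peak at chr3:3507694-3508294, with a score of 28 and a rank of 74.2. Neither DKO list had a peak there. The nearest peak was 4.0 kb upstream of the start in DKO1 and 4.1 kb upstream in DKO2, which in both is the region 4.3 kb upstream described next. Among 12576 placed start sites with a peak within 1 kb in at least 1 library, 3.43% had one in the control only, 12.7% in both DKO libraries only and 66.5% in all 3. The start of Hnf4g therefore belongs to a class uncommon in the deposited lists, although a single control list stands behind it. The lists differ in length: over all regions the control-only share was 13.0% as deposited and 20.7% with each list limited to 16977 peaks. The share of start sites at that length is not given here. Whether the Crispr allele removes or disrupts the bases under the control peak at the start is not given in the labels. A loss of the DNA and a loss of accessibility therefore cannot be told apart at this site.

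The region 4.3 kb upstream of the Hnf4g start, at chr3:3503343-3504036, was strongly open in all 3 libraries. It ranked at 98.4 in the control (score 58), 77.1 in DKO1 (score 36) and 96.8 in DKO2 (score 63). This was the highest rank of the locus in each library. The control exceeded DKO1 by 21.3 points and DKO2 by 1.6 points, beside 19.7 points between the DKO replicates. Chromatin next to the Hnf4g start was thus called open in the knockout libraries too.

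**Figure D1:**
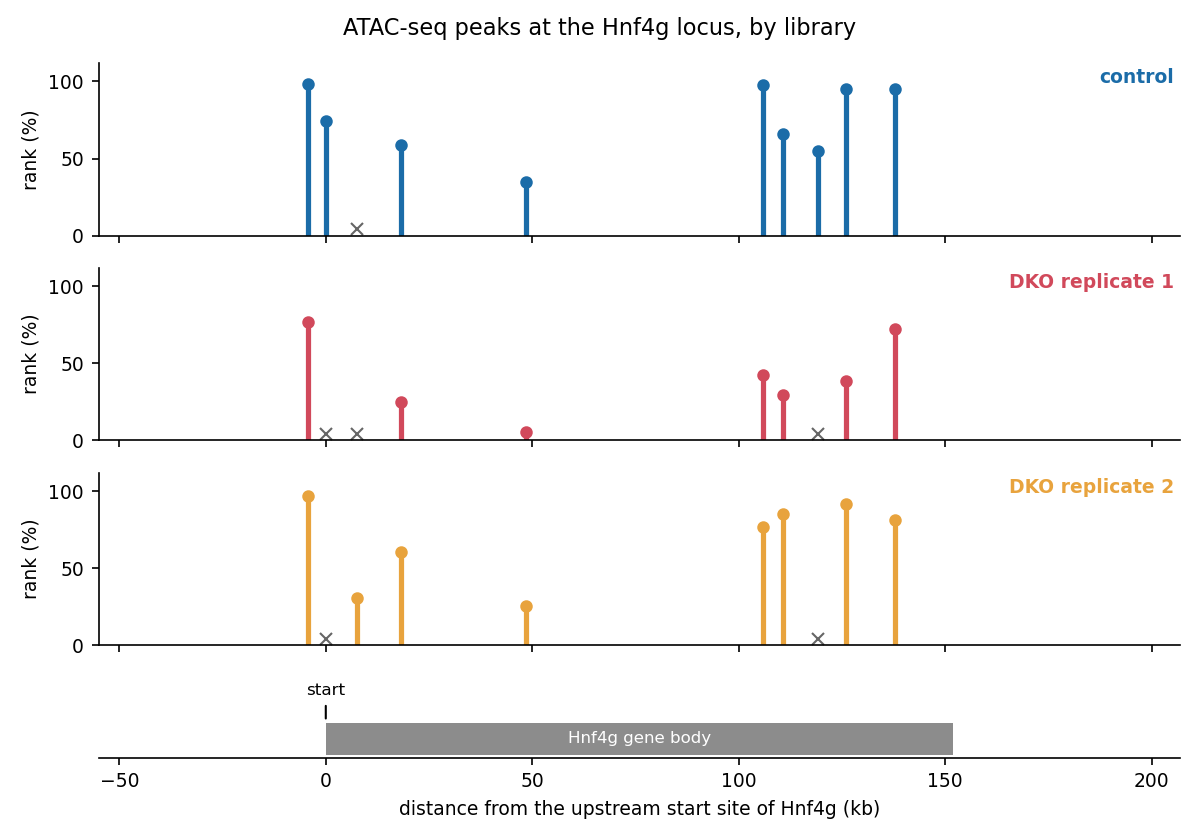
Peaks at the Hnf4g locus in each library, plotted as the percentile rank of the score within its own list (vertical axis, %) against the distance from the Hnf4g start (horizontal axis, kb); crosses mark regions of the locus with no peak in that library, and the grey bar is the gene body. The peak at the start (0 kb) and that at 119.3 kb are present in the control and crossed out in both DKO libraries, while the regions at -4.3, 18.1, 48.5, 105.8, 110.7, 126.0 and 137.8 kb have a peak in all 3.

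Inside the Hnf4g body, 2 regions called in all 3 libraries lay in the first 50 kb, at nearly the same base in every library. The region 18.1 kb downstream of the start (chr3:3525820-3526422) ranked at 58.8 in the control, 24.7 in DKO1 and 60.5 in DKO2. The region 48.5 kb downstream (chr3:3556240-3556849) ranked at 34.8, 5.6 and 25.4 in the same order and was the weakest shared region of the locus. Their peak centres differed by 2 and 9 bp across the 3 libraries. The median was 83 bp over the shared Hnf4g regions and 115 bp over all 10355 regions called in all 3 libraries, of which 2.33% agreed within 10 bp.

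The distal part of the Hnf4g body held a cluster of 5 regions between 105.8 and 137.8 kb from the start. The region at 105.8 kb (chr3:3613438-3614127) ranked at 97.8 in the control (score 54), 42.4 in DKO1 (score 22) and 76.9 in DKO2 (score 33). The control exceeded DKO1 and DKO2 by 55.4 and 20.9 points, beside 34.5 points between the DKO replicates. This was the largest difference from the DKO mean at the locus, 38.1 points.

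The region at 126.0 kb (chr3:3633688-3634371) ranked at 95.2 in the control, 38.4 in DKO1 and 91.4 in DKO2. Here the control and DKO2 lay 3.8 points apart while the DKO replicates lay 53.1 points apart, so the low value belonged to DKO1 alone. The last region, at 137.8 kb (chr3:3645558-3646174), ranked at 94.8, 72.1 and 81.0 in the same order. At this region the DKO replicates differed by 8.9 points and the control was above both by 22.6 and 13.7 points. In the deposited lists it was the 1 shared region of Hnf4g where both control differences exceeded the difference between the replicates. With each list limited to its 16977 top-scoring peaks, the regions at 18.1 and 105.8 kb did so too.

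The region at 110.7 kb (chr3:3618353-3619100) ran the other way for DKO2, with ranks of 65.7 in the control, 29.5 in DKO1 and 85.4 in DKO2. The 55.9 points between the DKO replicates were the widest replicate gap of the locus. Between the shared regions, the control had a further peak at 119.3 kb (chr3:3627014-3627614) with a score of 22 and a rank of 54.8, and the nearest DKO peaks lay 6077 and 6073 bp from it. DKO2 alone had a peak at 7.6 kb (chr3:3515273-3515873) with a score of 17 and a rank of 30.8, and 27.2% of all regions of the series were called in that library alone.

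Over the 7 shared regions of Hnf4g, the control ranked above DKO1 at 7 and above DKO2 at 5. The median difference was 34.1 points from DKO1 (range 21.3 to 56.9) and 3.8 points from DKO2 (range -19.7 to 20.9). DKO1 ranked below DKO2 at 7 of 7, with a median difference of -34.5 points. In the deposited lists, the median difference between control and knockout at shared Hnf4g regions was therefore no larger than that between the knockout replicates. It rested on DKO1 there: without DKO1 the control exceeded the knockout by 3.8 points in the median, and without DKO2 by 34.1. With lists of equal length, the median of control minus the DKO mean was 27.5 points, larger than the median difference between the replicates. Control minus DKO2 then ran from -11.4 to 34.0 points. Over all 10355 shared regions of the deposited lists the control was 2.9 points below DKO1 and 7.9 points below DKO2 in the median. The SDs were 24.1 and 22.7 points, and DKO1 was 4.8 points below DKO2 (SD 18.7).

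The control ranked above both DKO libraries at 5 of the 7 shared Hnf4g regions, against 22.2% of shared regions in the series, and below both at 0 of them, against 51.1%. No shared Hnf4g region lay at least 25 points above, or 25 points below, the ranks of DKO1 and DKO2 in the control, beside 2.63% and 12.3% in the series. Percentile ranks also depend on list length. With each list limited to its 16977 top-scoring peaks, 6 Hnf4g regions remained in all 3 libraries, the control was above both DKO libraries at 5 of them (33.1% in the series), and at 105.8 kb the control exceeded each by 25 points or more, with differences of 59.7 and 34.0 points (5.47% in the series). At that length both DKO libraries lost the weak peak at 48.5 kb, so that 3 regions were then control-only (20.7% in the series).

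Whole-locus patterns were counted over gene windows built in the same way, a choice made after the Hnf4g values were seen. At least 2 control-only and no DKO-only regions, as at Hnf4g, were found in 3.36% of 17391 protein-coding gene windows with a region. Of 378 gene windows with at least 5 shared regions, 0.529% (2 windows) had the control above the DKO mean at every one. DKO1 was below DKO2 at every one in 6.08% (23 windows), and Hnf4g showed both. At equal list lengths the shares were 5.2% (13) and 0.4% (1) of 250 windows, and Hnf4g again showed both. Hnf4g is counted in these shares, so the 1 window behind the 0.4% is Hnf4g itself. Neighbouring windows share regions, so these shares describe the series and are no test.

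At Hnf4a the control list held the fewest peaks. The control had 4 peaks in the 166.1 kb window, DKO1 had 6 and DKO2 had 9, which is also the order of the list lengths. With a flank of 100 kb the control and DKO1 were level at 8 peaks each, and DKO2 had 13. Of the 9 regions, 4 were called in all 3 libraries, 2 in both DKO libraries only, 3 in DKO2 only and none in the control only. The 2 DKO-only regions of 9 stand beside 16.0% in the series, the 3 of DKO2 beside 27.2%, and the absence of a control-only region beside 13.0%. At least 2 DKO-only and no control-only regions were found in 8.47% of gene windows. At the 4 shared Hnf4a regions the control ranked above both DKO libraries at 3, against 22.2% of shared regions in the series. It ranked below both at 1, against 51.1%. The median of control minus the DKO mean was 5.0 points, beside -8.5 points for DKO1 minus DKO2.

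The P2 start of Hnf4a was covered by a peak in every library (chr2:163332123-163332761). It ranked at 76.6 in the control (score 29), 34.0 in DKO1 (score 20) and 63.0 in DKO2 (score 26). The control was above both DKO libraries, by 42.6 and 13.6 points, and the DKO replicates differed by 29.0 points. With lists of equal length the differences were 47.6 and 34.7 points, so that the control then exceeded each by 25 points or more (5.47% in the series), with ranks of 29.0 and 42.0 in the DKO libraries. Hnf4aos, a long noncoding RNA gene annotated over the same stretch, overlaps this region, and reads at it cannot be assigned to either gene. A peak at P2 in both DKO libraries does not bear on whether the floxed exons were removed.

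No list had a peak at the P1 start, 40.3 kb downstream of P2. The nearest was 5.4 kb farther downstream in each library, at a region inside the Hnf4a body whose centre is 5.7 kb past P1 and 46.0 kb past P2 (chr2:163378164-163378822). It ranked at 92.8 in the control (score 41), 81.3 in DKO1 (score 39) and 92.0 in DKO2 (score 49). The control and DKO2 differed by 0.7 points and the DKO replicates by 10.7 points. This element within Hnf4a was therefore among the stronger peaks of all 3 lists.

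The strongest region of the Hnf4a window lay 7.6 kb beyond the end of the gene, in a stretch with no annotated gene (chr2:163405784-163406457). It ranked at 96.0 in the control (score 47), 88.9 in DKO1 (score 47) and 95.2 in DKO2 (score 57). The 3 ranks lay close together, with 0.8 points between the control and DKO2 and 6.3 points between the DKO replicates.

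**Figure D2:**
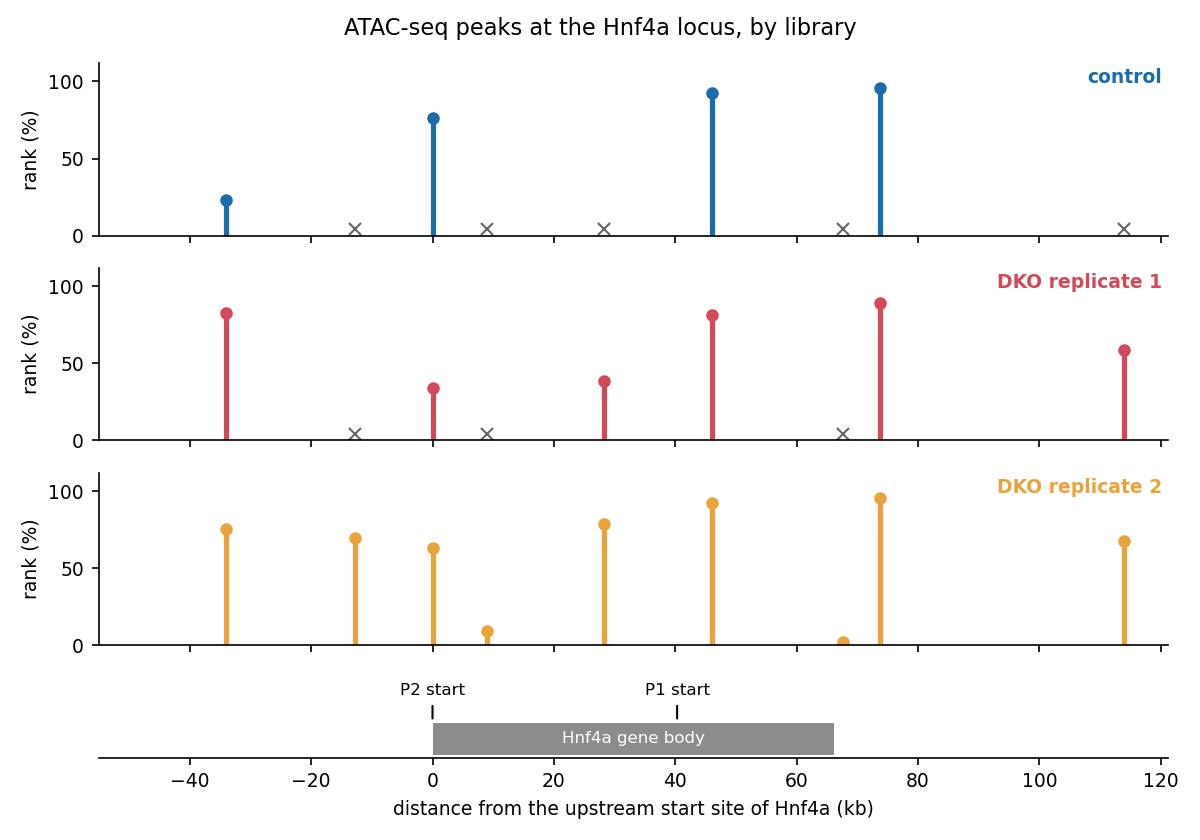
Peaks at the Hnf4a locus in each library, plotted as the percentile rank of the score within its own list (vertical axis, %) against the distance from the P2 start (horizontal axis, kb); crosses mark regions of the locus with no peak in that library, and the grey bar is the gene body with the P2 and P1 starts. The control has peaks at -34.1, 0, 46.0 and 73.7 kb, both DKO libraries add those at 28.2 and 113.9 kb, and no library has a peak at P1.

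The regions called in both DKO libraries and not in the control were one inside Hnf4a and one beyond it. The first lay between the promoters, 28.2 kb past P2 and 12.1 kb before P1 (chr2:163360230-163361152), also within Hnf4aos. It ranked at 38.4 in DKO1 (score 21) and 78.4 in DKO2 (score 34), with no control peak closer than 17069 bp. The peak windows of the DKO libraries overlapped only in part there, and with windows of 200 bp they no longer merged.

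The other lay 47.8 kb beyond the end of Hnf4a, between annotated genes near the edge of the window (chr2:163446042-163446701). It ranked at 58.6 in DKO1 (score 27) and 67.7 in DKO2 (score 28), with the nearest control peak 16645 bp away. With a flank of 25 kb it falls outside the locus. Both DKO-only regions were also called in both DKO libraries, and not in the control, at equal list lengths (13.3% of all regions) and among peaks with a score of at least 21.

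DKO2 alone had peaks 12.8 kb before P2 (rank 69.8), 9.0 kb past P2 (rank 9.0) and 1.7 kb beyond the gene (rank 1.9). The first, at chr2:163319374-163319974, overlaps the gene R3hdml as well as Hnf4aos, and the last was among the weakest peaks of its list. The latter pair was absent at equal list lengths, while the first stayed.

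The remaining shared region, 34.1 kb before P2, covers the placed start sites of a pair of neighbouring genes on opposite strands (chr2:163297999-163298746). These are Fitm2, which encodes a protein of lipid droplet formation, and the long noncoding RNA gene 2310001K24Rik. It was weak in the control, with a score of 16 and a rank of 22.8, and strong in both DKO libraries, with scores of 40 and 32 and ranks of 82.5 and 75.3. The control was 59.7 and 52.4 points lower, while the DKO replicates differed by 7.2 points. This was the 1 shared region of either locus where the control lay at least 25 points below DKO1 and DKO2 alike, a difference found at 12.3% of shared regions, and at equal list lengths it was lower by 58.3 and 38.4 points (7.94%). It is in the Hnf4a window by distance and lies at the start sites of other genes.

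**Figure D3:**
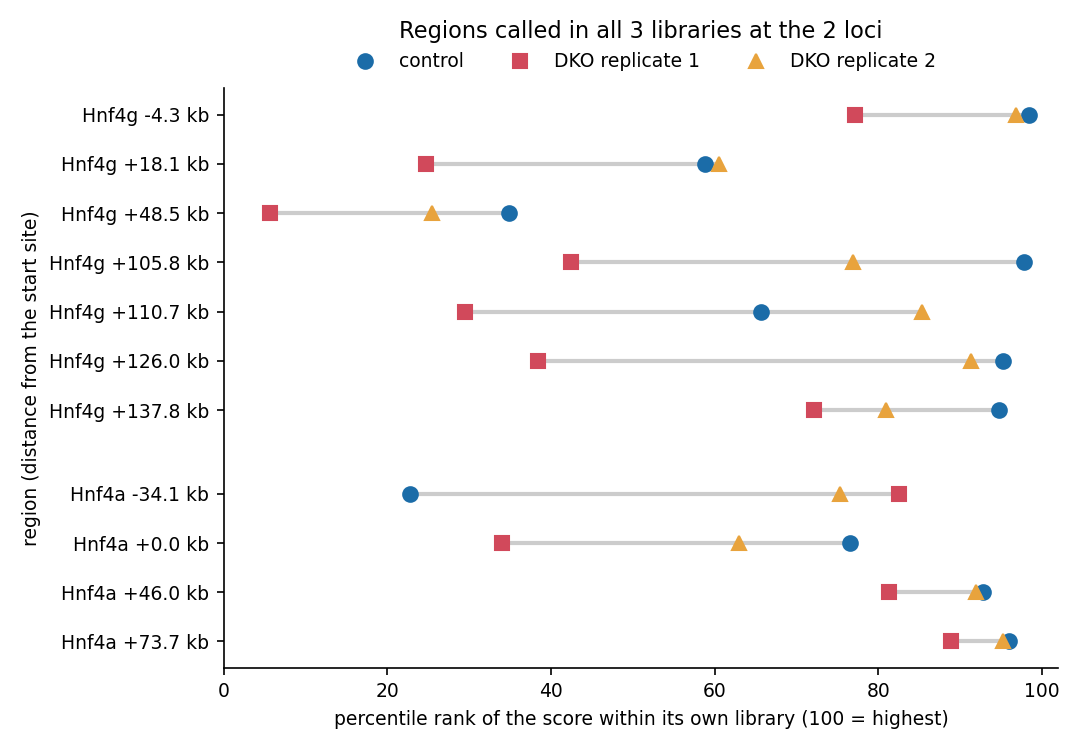
Percentile rank of the score (horizontal axis, %, 100 is the strongest peak) of each region called in all 3 libraries at Hnf4g (7 regions) and Hnf4a (4 regions); circles are the control, squares DKO1 and triangles DKO2, and each row is a region named by its distance from the start site in kb. DKO1 is the lowest of the 3 at 10 of the 11 regions, and at the region 34.1 kb before P2, over the Fitm2 start, the control is the lowest.

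Both loci had more open regions than an average stretch of genome, with 5.42 regions per 100 kb at Hnf4a and 3.97 at Hnf4g, beside 1.3 per 100 kb over the series. The series value covers stretches with and without genes. Protein-coding gene windows with a region held a median of 4 regions, beside 9 at Hnf4a and 10 at Hnf4g, though windows differ in length. At Hnf4a 4 of 9 regions overlapped the gene body, which fills 39.8% of the window, and at Hnf4g 9 of 10 did so, where it fills 60.3%. Peak centres in shared regions differed across libraries by 38 to 147 bp at Hnf4a and by 2 to 147 bp at Hnf4g.

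The start-site peaks were set beside those of other nuclear receptors and of partner transcription factors of the gut endoderm. Of 28 nuclear receptor genes listed, 25 had a placed start site. Of these, 6 had a peak within 1 kb in all 3 libraries, 1 in the control only, 5 in both DKO libraries only, 7 in none and 6 in other combinations. The 1 with a control-only start was Nr1h4, the bile acid receptor FXR, with a control rank of 50.4. The 5 called only in both DKO libraries were Rxrb, Nr1h2, Rara, Nr2c1 and Nr1d1. Among the other combinations, Rxra had a peak in DKO2 alone, and Ppard and Rora in DKO1 alone. Over all 31893 placed start sites, with a peak or without, 26.2% had one in all 3 libraries, 1.35% in the control only, 5.0% in both DKO libraries only and 60.6% in none. The receptors are counted by gene and these shares by start site, so a gene with several start sites had more chances of a peak.

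Of 16 partner factors, 9 had a placed start site and 5 of them had a peak in all 3 libraries, beside the 26.2% of all placed start sites: Foxa1, Foxa3, Cdx2, Klf4 and Elf3. None was called in the control only, and none in both DKO libraries only. Foxa2 and Ppargc1a had a start-site peak in DKO2 alone, and Gata5 and Creb3l3 had none in any library, all named after their values were seen.

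Among the receptors and partner factors, the genes nearest to each HNF4 gene were found by the Euclidean distance between start-site ranks over the 3 libraries, with a rank of 0 where no peak was called. Nearest to Hnf4a was Nr5a2, the nuclear receptor LRH-1, at 18.2 points, with ranks of 91.9 in the control, 38.4 in DKO1 and 71.8 in DKO2. Next was Cdx2, the intestinal identity factor, at 26.0 points, with ranks of 93.5, 38.4 and 82.3. Both shared with Hnf4a the order of control, DKO2 and DKO1, but they were picked by these same ranks, so this is no separate result. The third of these lists' genes was Thrb, a thyroid hormone receptor, at 39.4 points.

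Nearest to Hnf4g were Nr1h4 at 23.8 points, Nr1i2, the xenobiotic receptor PXR, at 34.4 points, and Vdr, the vitamin D receptor, at 67.3 points. Nr1i2 ranked at 58.8 in the control, had no peak in DKO1 and ranked at 30.8 in DKO2. Vdr ranked at 50.4 in the control and 63.0 in DKO2, again with none in DKO1. With 3 libraries such distances are descriptions of these lists.

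**Figure D4:**
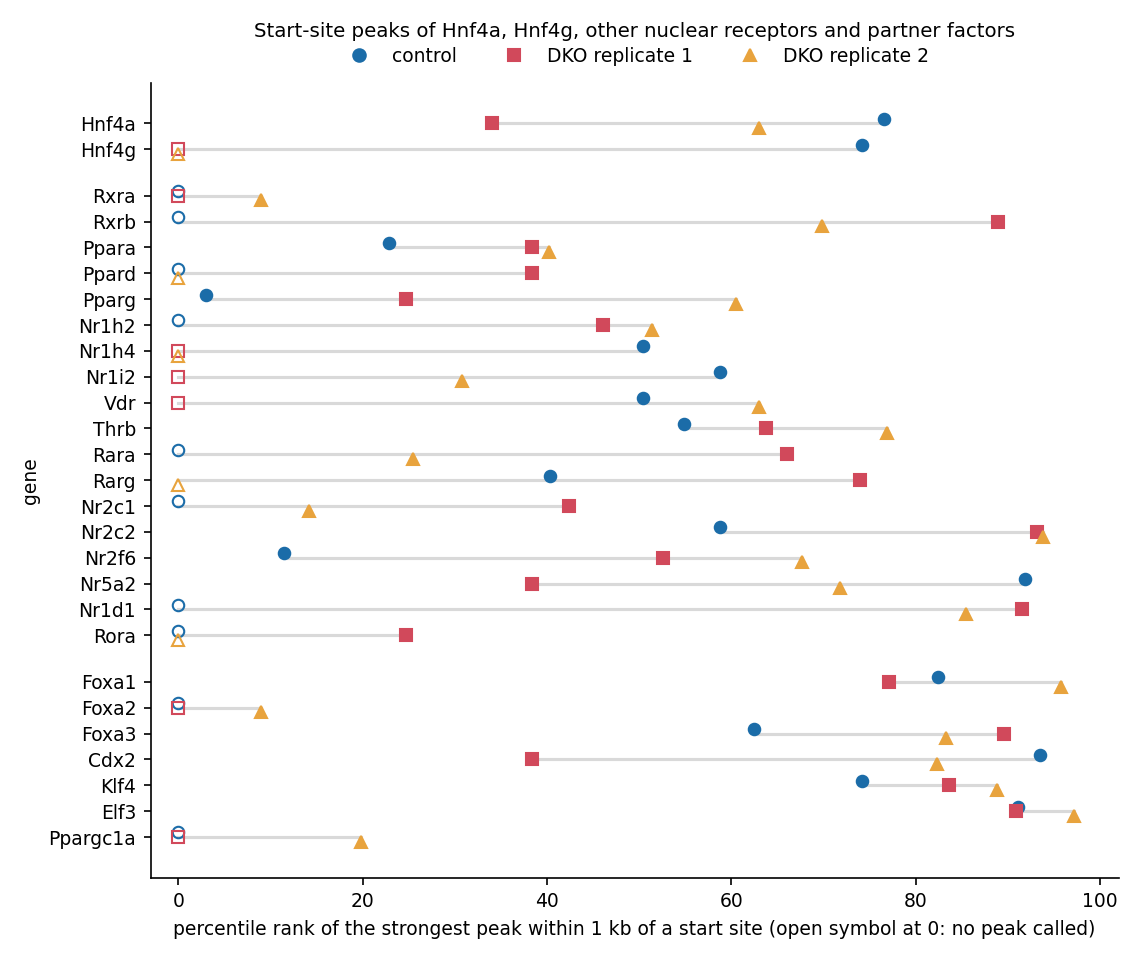
Percentile rank of the strongest peak within 1 kb of a start site (horizontal axis, %) for Hnf4a and Hnf4g (top), the other nuclear receptors (middle) and the partner factors (bottom) with a peak in at least 1 library; circles are the control, squares DKO1 and triangles DKO2, and an open symbol at 0 means that no peak was called. Hnf4g and Nr1h4 have a filled symbol for the control alone, and Hnf4a has one for all 3 libraries.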

How the data were processed

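ATAC-seq was measured in 3 libraries, grouped by their titles. Per the labels, single-end reads of 75 bp were sequenced. The submitters' processing notes name FastQC 0.11.3, Bowtie2 2.2.6, deepTools 2.4.2, MACS 1.4.1 and the build mm9, without roles; thresholds, duplicate handling and any Tn5 shift are not given in the sources used here. Each deposited list holds the peaks of 1 library with the authors' whole-number score, whose meaning is not stated. The score served for ranks within a list and, in 1 alternative, for a threshold of 21 set on every list. That alternative takes the scores as if on a common scale, which is not known.

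Genes of the GRCm38.p6 RefSeq table were placed by offset (up to 8 Mb, peak centres within 300 bp of a start, at least 1.5 times the runner-up). The use of gene ends around Hnf4g was chosen after start sites proved too few. For all start sites this was done in steps of 1 Mb. Of 2285 steps with a clear offset, 51 (2.23%) differed by over 1 kb from both neighbours and were dropped. After that, 97.2% of start sites were placed. The offset search on start sites over 5 Mb was tested on simulated data, where 200 of 200 known offsets were found within 300 bp. The search on gene ends over 20 Mb, which placed Hnf4g, was not simulated. The members and lists were chosen with earlier results of these data known. By rule, the named genes were the members, the 2 fixed lists' nearest 3 and those called in 1 genotype. The other partner factors with a placed start site, and the markers, were named beyond that rule. Python 3.11.15 and pandas 2.3.3 were used. Alternatives were list length, score threshold, overlap, flank, placement and each DKO replicate.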

Additional observations from a re-analysis of the deposited data

How the results depend on the processing

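The 14 counts and medians were recomputed under 9 alternatives, except the peak counts of a library that was itself left out. Equal list lengths, a gap of up to 1 kb and another stretch for gene placement (2.5 Mb for Hnf4a, 25 Mb for Hnf4g) left all counts within 1.5 times and the medians within the replicate spread. At equal list lengths the median rank difference at Hnf4g was nevertheless larger, at 27.5 points in place of 18.2. A score of at least 21 in every library left 2 regions in all libraries at Hnf4a, 4 at Hnf4g, 4 peaks of DKO replicate 1 at Hnf4g, and a median rank difference at Hnf4g of 38.2 points in place of 18.2. DKO-only regions at Hnf4a fell to 1 with windows of 200 bp and to 1 with a flank of 25 kb. A flank of 100 kb gave 8 control peaks, the same as DKO replicate 1, and 1 control-only region at Hnf4a. With either DKO replicate left out there were 2 to 5 DKO-only regions at Hnf4a, 0 to 1 at Hnf4g, and the median rank difference at Hnf4g was 3.8 to 34.1 points, the lower without DKO replicate 1. No paired analysis was possible because only 1 control library exists, with no number in its label. Depth is unknown, so a missing peak may lie just under the calling threshold.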
